A study of Rattus norvegicus with 6 samples.

Results

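The Slit ligands and their Robo receptors were measured in dissociated spinal cord cultures grown on carbon nanotubes (CNT) or on a control substrate. The genes were taken by symbol from the annotation of the array's probe sets, which gave 5 of the 14217 genes measured: the receptors Robo1 and Robo2 and the ligands Slit1, Slit2 and Slit3. They are covered by 9 of the 20826 probe sets that are paired with a single gene. Robo2 and Slit2 have 3 probe sets each and the other genes have 1, and each gene is represented by its probe set of highest mean. The cultures came from spinal cords of rats of postnatal days 1 to 4, labelled Sprague-Dawley, whereas the study's methods name Wistar rats. Control cultures (n = 3) grew on glass coverslips coated with polyornithine and CNT cultures (n = 3) on coverslips covered with multiwalled carbon nanotubes. All 6 received horse serum and nerve growth factor in the medium. RNA was taken at 8 days in vitro, and each culture was hybridized to 1 Affymetrix rat array. The values are log2 expression, so that a difference of 1 is a doubling. These are mixed cultures of neurons and glia, so fewer cells of a type and less RNA per cell cannot be told apart.

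Slits are large secreted proteins that repel growing axons, and Robos are the transmembrane receptors through which growth cones sense them. In the developing spinal cord Slits are made by the floor plate and by motor neurons, and Robo receptors keep commissural axons from crossing the midline again once they have crossed. Slit and Robo genes are also active outside neurons, in glia, vessels, meninges and muscle. The probe set of Shh, the signal of the floor plate, was brighter than 8.98% of single-gene probe sets and that of Foxa2, a floor plate transcription factor, than 7.82%. Of the same list, Foxj1, also a gene of ciliated cells, was brighter than 55.8% and Spon1, a secreted matrix protein, than 74.3%. The 5 measured motor neuron markers were brighter than 4.22% (Slc5a7) to 23.0% (Prph), with Chat, the acetylcholine enzyme, at 17.2%. The astrocyte filament gene Gfap and the myelin gene Mbp were brighter than 99.8% and 99.9%. They were the brightest of their lists, in which Slc1a2 (astrocyte, 38.0%) and Olig2 (oligodendrocyte lineage, 15.9%) were the dimmest. The neuronal tubulin gene Tubb3 was brighter than 58.6%, in a neuron list that ran from 15.6% (Syt1) to 89.7% (Gap43). Such a percentage describes the brightness of a probe set and not the number of transcripts.

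By its brightest probe set, no Slit or Robo gene differed between CNT and control cultures by more than its pooled within-group SD. Tested with limma, 0 of the 5 genes had an adjusted p under 0.05, where 0% of the 14217 genes passed as higher and 0% as lower. At an unadjusted p under 0.05 the count was also 0 of 5, against 2.41% of all genes higher and 0.71% lower. A rank product over the 3 pairs of equal replicate number, with a closed-form p, likewise called 0 of the 5, against 0.513% of all genes higher and 0.0352% lower. The study's own rank product, run on EntrezGene custom files, was not repeated here. From its arrays the study reported raised Robo1 mRNA on CNT. It found Robo1 protein unchanged, and a significant rise of the mRNA by PCR at a later day. The log2 fold change was negative for 4 of the 5 genes and for 41.5% of all genes. A fold of more than 1.2 lower was seen for Slit2 and Slit3, 2 of the 5, and for 7.18% of all genes. The groups overlapped for all 5, while they did not overlap for 7.99% of all genes. The adjusted p was 0.999 for each of the 5, which does not show that the substrates gave equal levels, and the intervals below give the size of change that these arrays leave possible.

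**Figure D1:**
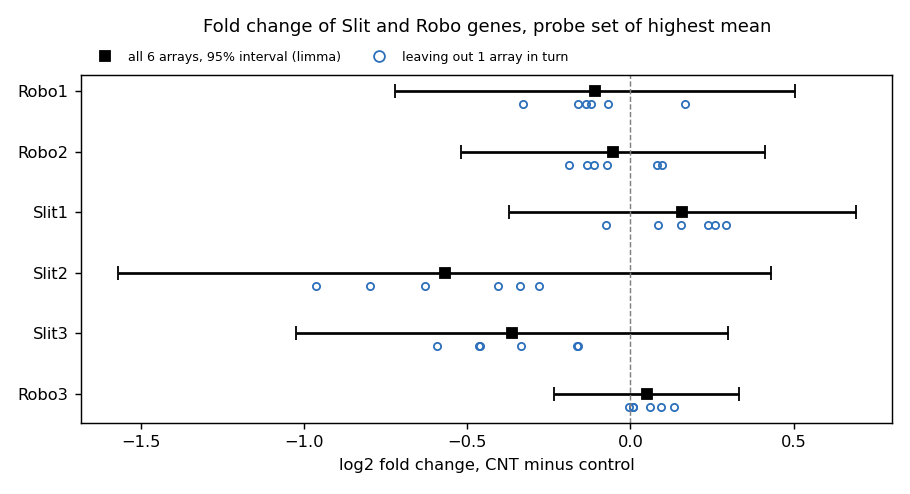
Log2 fold change (CNT minus control, x axis) of the 5 Slit and Robo genes and of Robo3, each by its probe set of highest mean. Squares and bars are the limma estimate and its 95% interval over 6 arrays, and open circles are the estimates with 1 array left out in turn. Every interval crosses 0, and the circles of Slit2 (from -0.96 to -0.28) and Slit3 (from -0.59 to -0.16) stay below 0 while those of Robo1, Robo2 and Slit1 lie on both sides.

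Robo1, roundabout 1, is a receptor that mediates repulsion of axons by Slits. Its probe set (1369338_at) read 6.75, 7.75 and 7.09 in control cultures 1, 2 and 3 and 7.12, 7.01 and 7.15 in CNT cultures 1, 2 and 3. Control 2 was the highest and control 1 the lowest of the 6 arrays, with the CNT cultures close together between them. Control cultures averaged 7.20 ± 0.51 and CNT cultures 7.09 ± 0.072 (SD, n = 3 each), a log2 fold change of -0.11 (SE, the standard error, 0.25, 95% interval -0.72 to 0.50). On the linear scale this is a fold of 0.928, and the interval runs from 0.607 to 1.42. The sign rested on control 2, since the log2 fold change was 0.17 without it and -0.33 without control 1. The control SD of Robo1 was larger than that of 91.1% of all genes, and its CNT SD was larger than that of 14.6%. Its brightness exceeded that of 28.2% of single-gene probe sets.

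A second gene on the array carries an almost identical older name. Lypd8l1, a member of the Ly6 family of small membrane-anchored proteins, is known from rat bone as RoBo-1 and is unrelated to the roundabout receptors. That older name is background knowledge and is not a synonym in the gene table used here. Probe sets were matched to RefSeq genes by gene number, and the array's annotation gives these 2 different transcript accessions. RefSeq places Robo1 on chromosome 11 and Lypd8l1 on chromosome 10. To show that these are separate loci, the 300 bases around their transcription starts (250 before and 50 after, RefSeq, GRCr8, plus strand) are printed with the CG dinucleotides in capitals. Robo1 has 2 annotated starts in the RefSeq table.
Robo1, chr11:24067706-24068005: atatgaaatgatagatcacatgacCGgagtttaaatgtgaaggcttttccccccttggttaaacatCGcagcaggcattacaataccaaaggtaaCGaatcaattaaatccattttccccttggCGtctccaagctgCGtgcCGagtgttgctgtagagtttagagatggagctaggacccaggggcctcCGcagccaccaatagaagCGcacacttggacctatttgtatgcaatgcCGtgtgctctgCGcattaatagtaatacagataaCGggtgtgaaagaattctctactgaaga
Robo1, chr11:24714445-24714744: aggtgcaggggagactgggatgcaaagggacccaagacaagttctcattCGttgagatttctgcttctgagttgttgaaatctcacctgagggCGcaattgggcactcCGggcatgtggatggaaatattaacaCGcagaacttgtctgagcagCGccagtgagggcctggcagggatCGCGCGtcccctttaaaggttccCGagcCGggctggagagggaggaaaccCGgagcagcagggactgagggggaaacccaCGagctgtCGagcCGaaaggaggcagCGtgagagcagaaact
Lypd8l1, chr10:43115729-43116028: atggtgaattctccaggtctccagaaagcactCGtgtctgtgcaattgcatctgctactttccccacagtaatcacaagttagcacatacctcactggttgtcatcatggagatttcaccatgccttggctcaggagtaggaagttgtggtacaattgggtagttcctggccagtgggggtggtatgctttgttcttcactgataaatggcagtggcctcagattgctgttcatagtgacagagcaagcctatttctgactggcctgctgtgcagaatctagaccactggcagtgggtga
The letters CG, which read the same on both strands, occur 11 and 15 times in the windows of Robo1 and 1 time in that of Lypd8l1. Of 33469 such windows in the table, 39.0%, 32.0% and 94.5% hold at least as many. No value here bears on how these starts are used.

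The probe set of Lypd8l1 (1369497_at) read 7.54, 8.29 and 6.47 in control cultures and 9.18, 10.31 and 8.35 in CNT cultures 1, 2 and 3. All 3 CNT cultures exceeded all 3 control cultures, CNT 3 and control 2 being only just apart. This order held for 5.94% of all genes. The log2 fold change was 1.85 (SE 0.63, 95% interval 0.32 to 3.38), a fold of 3.59. It did not pass limma's test over all genes (adjusted p = 0.999, unadjusted p = 0.0254), whereas the rank product over 3 pairs called it higher. Leaving out each array in turn gave log2 fold changes from 1.33 to 2.31.

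**Figure D2:**
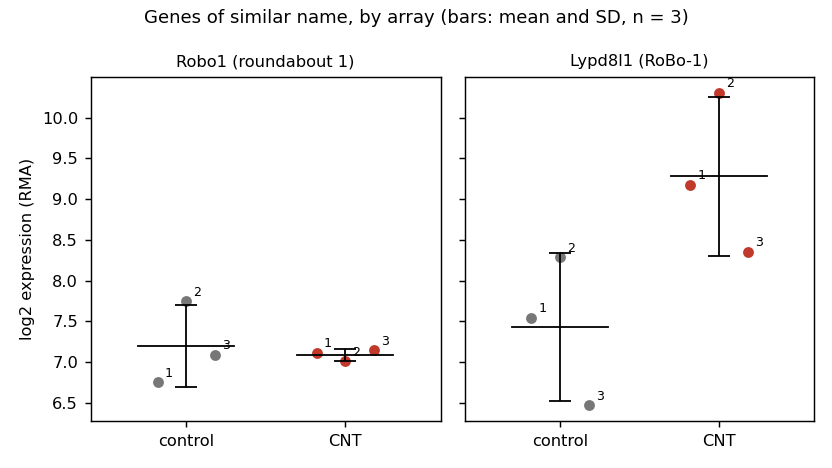
Log2 expression (y axis) of Robo1, roundabout 1, and of Lypd8l1, RoBo-1, on each array, with grey symbols for control and red symbols for CNT cultures. Numbers are replicates, and lines and bars give mean and SD (n = 3). The groups overlap for Robo1 (fold 0.928) and not for Lypd8l1 (fold 3.59). Levels are not to be compared between the genes.

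Robo2, the closest relative of Robo1 and likewise a Slit receptor, is measured by 3 probe sets. The brightest (1379693_at) read 9.68, 9.11 and 9.34 in control and 9.44, 9.48 and 9.05 in CNT cultures 1, 2 and 3. Control 1 was the highest array and CNT 3 the lowest, and the groups overlapped. Control cultures averaged 9.38 ± 0.29 and CNT cultures 9.32 ± 0.24 (SD, n = 3 each), a log2 fold change of -0.055 (SE 0.19, 95% interval -0.52 to 0.41). It changed sign without control 1 (0.096) or without CNT 3 (0.081).

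The second probe set of Robo2 (1379750_at) read 7.68, 7.49 and 7.23 in control and 7.34, 7.43 and 7.27 in CNT cultures, with a log2 fold change of -0.12 (SE 0.14). It was -0.013 without control 1 and -0.24 without control 3. The dimmest (1382632_at) read 5.94, 5.97 and 5.99 in control and 5.83, 5.56 and 5.595 in CNT cultures. All CNT arrays of this probe set lay below all control arrays, as they did for 2.43% of single-gene probe sets. Its log2 fold change was -0.30 (SE 0.11), with an unadjusted p of 0.0302, where 1.02% of probe sets were lower at an unadjusted p under 0.05, and an adjusted p of 0.999 over all probe sets in limma. It ran from -0.39 to -0.25 when each array was left out in turn. It was the least bright of the 3, above 12.99% of probe sets, where the first was above 55.3%. The 3 probe sets of Robo2 thus had the same sign but differed in whether the groups overlapped, and a difference between them was not tested.

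Robo3, the receptor that lets commissural axons reach the midline, is outside the 5 genes and was dim, above 10.3% of probe sets. It read from 5.41 to 5.67 in control and from 5.46 to 5.66 in CNT cultures, a log2 fold change of 0.050 (SE 0.12). Its sign was negative under quantile normalization (-0.018) and under cyclic loess (-0.013). Robo4, the endothelial member, was not analysed here.

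**Figure D3:**
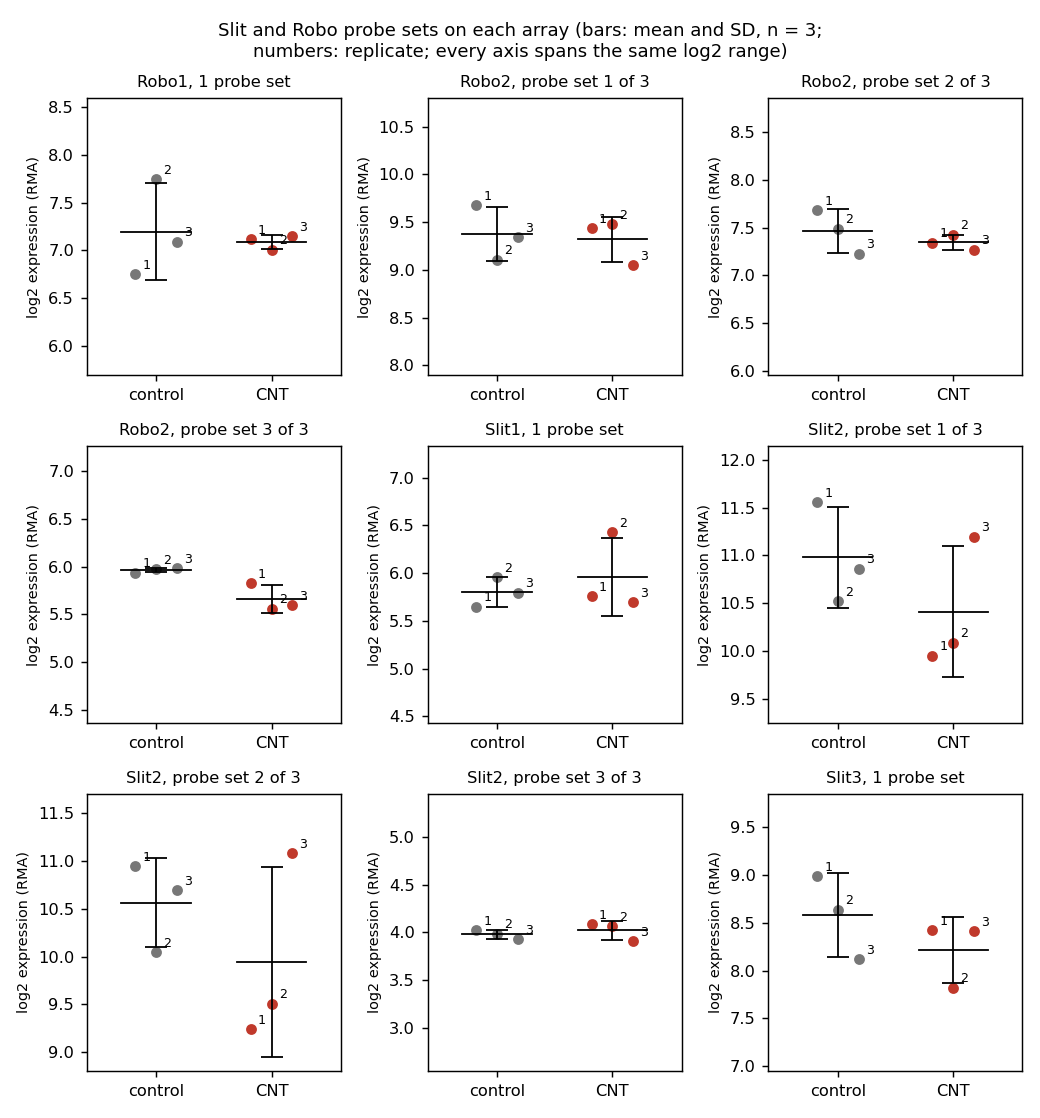
Log2 expression (y axis) of the 9 Slit and Robo probe sets on each array, with grey symbols for control and red symbols for CNT cultures. Numbers are replicates, lines and bars give mean and SD (n = 3), and every panel spans the same log2 range. The groups are apart only in the third Robo2 probe set. CNT 1 and CNT 2 are below every control culture, and CNT 3 is not, in the first and second Slit2 probe sets.

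Slit2 is the Slit most often studied in axon repulsion and is cut into fragments with different activities. Its brightest probe set (1382685_at) read 11.56, 10.52 and 10.86 in control and 9.95, 10.09 and 11.20 in CNT cultures 1, 2 and 3. CNT 1 and CNT 2 lay below all control cultures, whereas CNT 3 exceeded control 2 and control 3. Control cultures averaged 10.98 ± 0.53 and CNT cultures 10.41 ± 0.68 (SD, n = 3 each), with a log2 fold change of -0.57 (SE 0.41), or a fold of 0.674. The 95% interval of the log2 fold change was -1.57 to 0.43, the widest of the 5 genes. The log2 fold change was -0.96 without CNT 3 and -0.28 without control 1. It was also -0.34 without CNT 1.

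The second Slit2 probe set (1395986_at) read 10.95, 10.05 and 10.70 in control and 9.24, 9.51 and 11.08 in CNT cultures, with a log2 fold change of -0.62 (SE 0.52). The arrays had the same order as in the first probe set, except that CNT 3 and control 1 changed places at the top. Its log2 fold change was -1.19 without CNT 3 and -0.27 without CNT 1. The third probe set of Slit2 (1369346_at), which is matched to the RefSeq transcript, read from 3.93 to 4.02 in control and from 3.91 to 4.09 in CNT cultures. Only 0.763% of probe sets were dimmer, so its log2 fold change of 0.043 (SE 0.096) was measured at the bottom of the array's range, while the other Slit2 probe sets were above 75.5% and 68.7%.

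Slit3, the ligand with the widest role outside the nervous system, has 1 probe set (1368920_at). It read 8.99, 8.64 and 8.12 in control and 8.42, 7.82 and 8.41 in CNT cultures 1, 2 and 3. Control 1 and control 2 were the highest arrays and CNT 2 the lowest, while control 3 lay below CNT 1 and CNT 3. Control cultures averaged 8.58 ± 0.44 and CNT cultures 8.22 ± 0.35 (SD, n = 3 each), with a fold of 0.778 (log2 fold change -0.36, SE 0.27, 95% interval -1.02 to 0.30). Leaving out control 1 or CNT 2 gave -0.16 each, and leaving out control 3 gave -0.59.

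Slit1, the ligand most restricted to the nervous system, was dim, above 13.6% of probe sets (1368483_a_at). It read 5.65, 5.96 and 5.80 in control and 5.76, 6.43 and 5.69 in CNT cultures 1, 2 and 3. CNT 2 was the highest array and the other CNT cultures lay within the control range. Control cultures averaged 5.80 ± 0.15 and CNT cultures 5.96 ± 0.41 (SD, n = 3 each), a log2 fold change of 0.16 (SE 0.22, 95% interval -0.37 to 0.69). Without CNT 2 it was -0.075. The ligands thus had estimates of both signs. None was larger than the pooled within-group SD, which was 0.31 for Slit1, 0.61 for Slit2 and 0.39 for Slit3.

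Markers of other cells also varied over the arrays. The fibroblast and meningeal list, 15 genes, held 14 negative values with a median of -0.54. Over all genes 41.5% were negative and the median was 0.030. In this list 0 genes passed limma's adjusted p. At an unadjusted p under 0.05, 2 (Fbln2 and Fbln5, fibulins of the matrix) were lower, against 0.71% of all genes. The rank product called 1 (Fbln2) lower, against 0.0352% of all genes. The mean level of this list ranged from 12.0 to 12.4 log2 in control and from 10.8 to 12.1 in CNT cultures. Relative to the mean of the 6 arrays, the list stood at 0.58, 0.22 and 0.17 in control and at -0.14, -1.09 and 0.26 in CNT cultures 1, 2 and 3. The arrays in which it was lowest, CNT 2 and CNT 1, were also the lowest for Slit2. The array in which it was highest, control 1, was the highest for both Slit2 and Slit3. CNT 3 was next highest for both the list (0.26) and Slit2 (0.50), and CNT 2 was also the lowest array for Slit3 (-0.58). Elsewhere the values did not match. Relative to its own mean, Slit1 was highest in CNT 2 (0.55), and Slit3 was second lowest in control 3 (-0.28). Of 9 smooth muscle and pericyte markers, 7 were negative (median -0.51). Their mean level ranged from 9.81 to 10.1 in control and from 9.13 to 9.89 in CNT cultures, also lowest in CNT 2. In CNT 1, the lowest array for Slit2, this list stood at 0.079 relative to the mean of the 6 arrays. The part of these cells in the Slit values was not tested.

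For beta-actin, the log2 signal at the 3' end minus that at the 5' end was 2.20, 0.62 and 0.66 in control and 0.92, 2.20 and 1.72 in CNT cultures 1, 2 and 3. The difference is larger where RNA is shortened. It was largest in control 1 and CNT 2, which are the highest and the lowest array for Slit3. Without these 2 arrays the log2 fold change was 0.040 for Slit3, -0.12 for Slit2, -0.15 for Slit1, 0.018 for Robo2 and -0.29 for Robo1. With the beta-actin difference as a covariate it was -0.78 for Slit2 and -0.41 for Slit3. The part of RNA quality in the Slit values was not tested beyond these values.

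**Figure D4:**
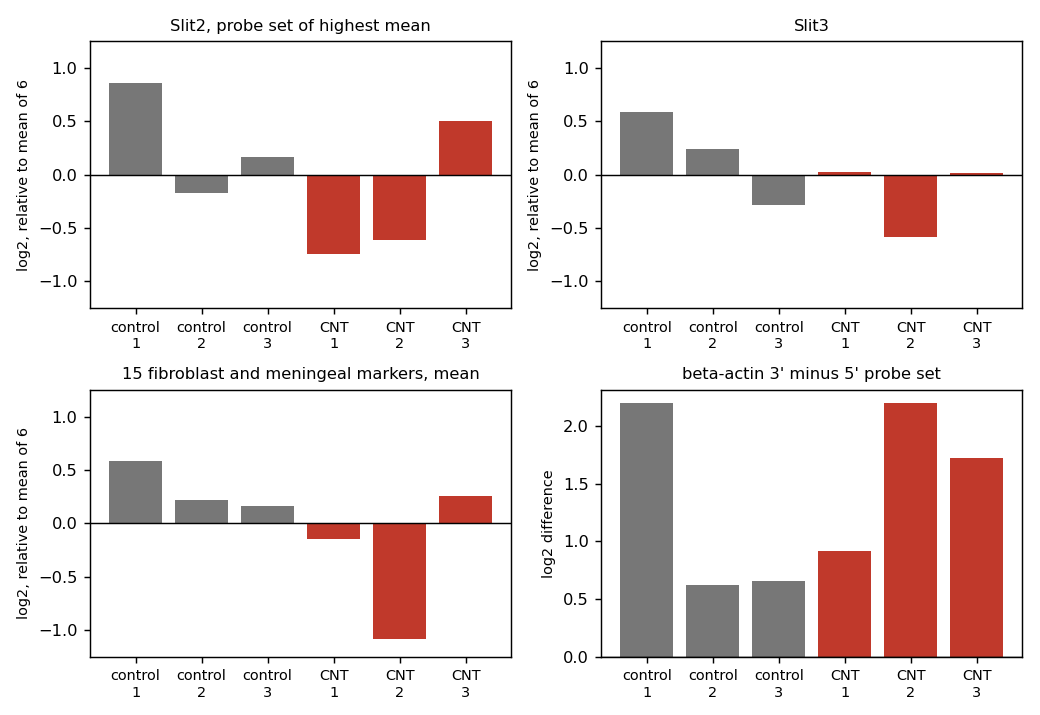
Slit2 (probe set of highest mean), Slit3 and the mean of 15 fibroblast and meningeal markers on each array, as log2 values relative to the mean of the 6 arrays, and the log2 difference between the 3' and 5' beta-actin probe sets, in grey for control and red for CNT. Bars are single arrays. Control 1 is the highest array for Slit2, Slit3 and the markers, and CNT 2 is the lowest for Slit3 and the markers, and both have a beta-actin difference of 2.20.

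The other marker lists gave the following values, where 8318 of all 14217 genes were positive and their median was 0.030. Of 12 neuron markers 4 were positive and 8 negative (median -0.083), and the mean level of the list ranged from 9.27 to 9.48 in control and from 9.28 to 9.35 in CNT cultures. All 5 measured motor neuron markers were positive (median 0.12), at mean levels from 5.68 to 5.82 in control and from 5.80 to 5.96 in CNT cultures, and the 4 floor plate markers had a median of -0.042. The 8 astrocyte markers were all negative (median -0.13) and of 9 oligodendrocyte lineage markers 6 were positive (median 0.037). The 3 Schwann cell, 8 endothelial and 9 microglia and macrophage markers were all positive, with medians of 0.23, 0.11 and 0.37. In these lists 0 genes passed limma's adjusted p or were called by the rank product. At an unadjusted p under 0.05, 1, the intermediate filament gene Prph, was higher, against 2.41% of all genes.

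Inside the cell, Robo receptors act through proteins that rearrange actin and microtubules. Of 21 measured effectors, 0 passed limma's test in either direction at an adjusted p of 0.05, where 0% of all genes did. At an unadjusted p under 0.05 the count was also 0, against 2.41% of all genes higher and 0.71% lower. The list had 11 positive and 10 negative values and a median of 0.0097, against 0.030 over all genes. The median ran from -0.080 without CNT 1 to 0.074 without CNT 3 and was -0.028 under median centring. The most changed by unadjusted p were Evl, Enah and Vasp, the Ena/VASP proteins that lengthen actin filaments, with log2 fold changes of 0.20 (SE 0.15), -0.34 (SE 0.28) and 0.16 (SE 0.13). These values moved with single arrays. Evl was at 0.047 without CNT 2 and 0.31 without CNT 3, and Vasp at 0.057 without CNT 1 and 0.26 without CNT 3. Enah was at -0.096 without control 1, -0.14 without CNT 2, -0.52 without CNT 3, 0.10 without both control 1 and CNT 2, and -0.15 as the mean of its probe sets. Srgap2, one of the Slit-Robo GTPase activating proteins, had a log2 fold change of 0.13 (SE 0.17), and Rac1, the small GTPase at the end of this pathway, of -0.019 (SE 0.13). Rac1 changed sign without control 2 (0.072) and without CNT 3 (0.073). Pfn1, the actin monomer carrier profilin, had a log2 fold change of -0.17 (SE 0.26), which ran from -0.43 without CNT 1 to -0.032 without CNT 3. It was -0.31 without control 3, -0.033 without control 2 and -0.061 without CNT 2.

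Slits bind heparan sulfate, the sugar chains of glypicans and syndecans, which Robo signalling needs. Of 13 genes of these partners and of heparan sulfate synthesis, 10 had a negative log2 fold change and 3 a positive one, with a median of -0.12. In limma 0 of the 13 passed an adjusted p of 0.05, where 0% of all genes did. At an unadjusted p under 0.05 the count was also 0, against 2.41% of all genes higher and 0.71% lower. The lowest of the 13 was the syndecan gene Sdc2 (log2 fold change -0.42, SE 0.30). It averaged 12.8 ± 0.43 in control and 12.4 ± 0.45 in CNT cultures (SD, n = 3 each). The log2 fold change of Sdc2 was -0.20 without control 1, -0.23 without CNT 2, -0.64 without control 2 and -0.67 without CNT 3, and it was -0.013 without both control 1 and CNT 2. Ext1, which extends the heparan sulfate chain, had a log2 fold change of -0.38 (SE 0.28) and Hs2st1, which adds sulfate to it, of -0.29 (SE 0.13, unadjusted p = 0.066). Ext1 was at -0.075 without CNT 2 and -0.66 without CNT 3, and Hs2st1 at -0.14 as the mean of its probe sets. Sdc4 was at -0.23 (SE 0.18), or -0.10 without CNT 2 and -0.40 without CNT 3, and Dag1, dystroglycan, which binds Slits in the floor plate, at -0.045 (SE 0.13). Dag1 turned positive without control 2 (0.024) and without CNT 3 (0.0058). As the mean of its probe sets Dag1 was at -0.20 (SE 0.097). The list's median was -0.040 without CNT 2 and -0.17 without CNT 3.

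Of 17 genes of co-receptors, other ligands and Robo trafficking, 7 were positive and 10 negative (median -0.041, or -0.0053 without CNT 3), and 0 passed limma's adjusted p. Cdh2 and Nedd4 were lower at an unadjusted p under 0.05 in limma, against 0.71% of all genes. These were also the 2 genes of the list whose CNT arrays all lay below the control arrays, where 2.05% of all genes did so. Cdh2, the neural cadherin whose adhesion Robo signalling can lower, had a log2 fold change of -0.33 (SE 0.12). Nedd4, a ubiquitin ligase of the family that mediates Robo degradation with Commissureless in flies and with Ndfip proteins in mammals, had a log2 fold change of -0.37 (SE 0.14), and -0.61 as the mean of its 6 probe sets. Ndfip1, one of these adaptors, was at 0.016 (SE 0.11), with a negative sign under median centring (-0.022) and without control 2 (-0.067). Prrg4, a relative of Commissureless, had the highest value (log2 fold change 0.60, SE 0.35), and leaving out control 1, CNT 1 or control 2 gave 0.27, 0.39 and 0.90. Ctnnb1, beta-catenin, was at -0.047 (SE 0.086), or -0.027 without control 1 and -0.022 without CNT 3. Over the 52 measured genes outside the 5, 57.7% had a negative log2 fold change against 41.5% of all genes, and the groups did not overlap for 3.85% against 7.99%.

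**Figure D5:**
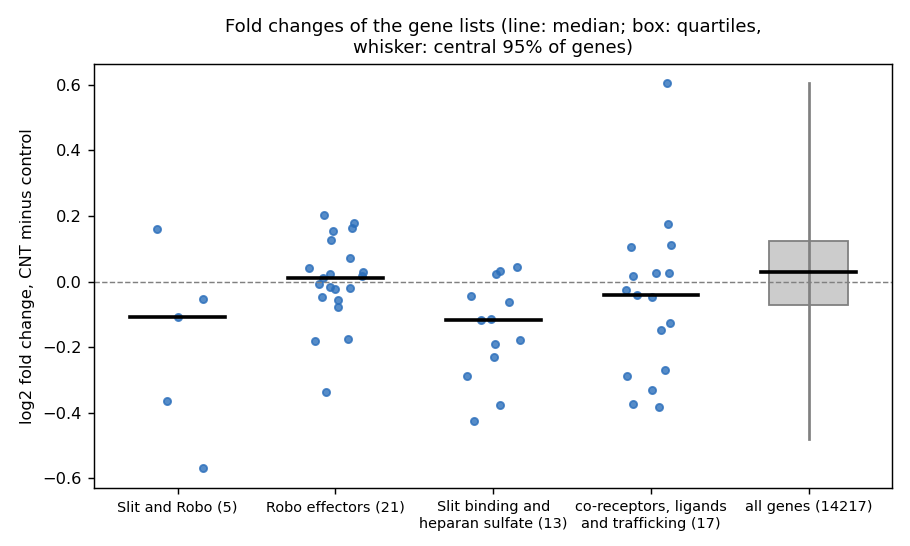
Log2 fold changes (CNT minus control, y axis) of the 5 Slit and Robo genes and of the 3 main pathway lists, each dot a gene and each line a median, beside all 14217 genes with their quartiles (box) and central 95% (whisker). The medians are -0.11, 0.0097, -0.12, -0.041 and 0.030 from left to right.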

How the data were processed

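Each of 6 cultures (3 control, 3 CNT) was measured on 1 Affymetrix array, from 100 ng of RNA. The values deposited by the authors are log2 expression, made with RMA (background correction, quantile normalization and summary per probe set), whose version is not given in the sources used here. The study's own analysis used EntrezGene custom files and the rank product. RMA equalizes the arrays, so a change shared by most genes would not show. Of 31099 probe sets, 57 controls, 436 paired with several genes and 9780 with none were left out, and 20826 remained, for 14217 genes. CNT and control cultures were compared without pairing by limma 3.58.1 (lmFit, then eBayes; R 4.3.3) on the values as deposited. P-values were adjusted over all genes by Benjamini-Hochberg, with 0.05 as the threshold. The labels call the samples biological replicates. With 3 arrays against 3, their number limits the precision, and the smallest two-sided p an exact permutation test could give is 0.1. The rank product was computed over 3 pairs of equal number (the pairing itself is not established) with its p from the gamma distribution, which treats genes as independent. The methods were tested on simulated data, drawn independently for each gene and with changes larger than the Slit and Robo estimates. That test therefore does not cover dependence between genes or changes of the size estimated here.

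The genes and lists were chosen with earlier results of these data known. Of 147 list entries, 139 were found on the array. The named genes are the 5 genes with all probe sets, Robo3, Lypd8l1, from each pathway list up to 3 of smallest unadjusted p and 2 more of highest mean, and for each of the 5 the 2 genes of nearest profile. Foxj1, Spon1, Chat, Prph, Gfap, Mbp and Gap43 are among the 2 genes of highest mean in their marker lists. Srgap2, Shh, Foxa2, Slc5a7, Slc1a2, Olig2, Tubb3, Syt1 and the fibroblast markers were named after their values were seen. Alternatives covered the model (eBayes with trend and robust, array weights, replicate block), the probe sets (averaged per gene, or each tested singly), the dimmest 30% of genes left out, quantile, cyclic loess and median scaling, leaving out each array, leaving out the 2 arrays of largest beta-actin difference, and that difference as a covariate. Promoter windows came from RefSeq, with none printed for other genes.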

Additional observations from a re-analysis of the deposited data

How the results depend on the processing

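No Slit or Robo probe set passed an adjusted p of 0.05 under any alternative, the smallest value being 0.666, the percentage of false positives of Slit2 in the rank product. Slit2 kept its negative sign in all 18 alternatives, from -0.96 to -0.12, and the probe sets 1379750_at, 1382632_at and 1395986_at were negative in all 14 of theirs. Slit3 was positive only without control 1 and CNT 2 (0.040), a setting in which Slit1 was -0.15 and Robo2 0.018, and Enah 0.10. Leaving out each array in turn gave log2 fold changes from -0.33 to 0.17 for Robo1, from -0.19 to 0.096 for Robo2, from -0.075 to 0.29 for Slit1, from -0.96 to -0.28 for Slit2 and from -0.59 to -0.16 for Slit3. Over the same omissions Robo3 ran from -0.0048 to 0.13, Rac1 from -0.066 to 0.073, Dag1 from -0.15 to 0.024 and Ndfip1 from -0.067 to 0.083. With array weights Robo2 was at 0.038 and Rac1 at 0.029, and with probe sets averaged Rac1 was at 0.0098 and Slit2 at -0.38. With the beta-actin difference as a covariate Robo1 was at 0.033, Robo3 at -0.022, Rac1 at 0.014 and Ndfip1 at -0.0030. Robo3 was at -0.018 under quantile normalization and -0.013 under cyclic loess, the dimmest Slit2 probe set at -0.0088 under cyclic loess, and Ndfip1 at -0.022 under median centring. The cause of these changes was not tested. Between 0 and 2 of all genes passed as higher when each array was left out, the 2 without control 3. Robo1 and Slit1 are among the dimmest 30% of genes and have no value in that setting.

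In the main limma comparison the replicate numbers were not taken as pairs, since not every pair of equal number correlated above 0.1. The labels also do not say that a number marks a shared culture series. The rank product did use these pairs, so its calls rest on a pairing that is not established. The deviations of same-numbered arrays correlated over genes at -0.13, 0.36 and 0.51 for numbers 1, 2 and 3, CNT 2 and CNT 3 correlating best with the control of their own number and CNT 1 with control 2 (0.68). Over all genes, control 3 and CNT 3 had the highest correlation of any 2 arrays (0.994). With the replicate block the log2 fold changes stayed as they were (-0.11 for Robo1, -0.055 for Robo2, 0.16 for Slit1, -0.57 for Slit2 and -0.36 for Slit3), no call changed, and 498 genes were higher and 179 lower at an unadjusted p under 0.05, against 342 and 101 without it.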

Other observations

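Each of the 5 genes was set against all other genes by the root mean square difference of the log2 values on the 6 arrays, after the mean of each gene was subtracted. The profile of Slit3 was nearest to those of Tmem119 (difference 0.048 log2) and Tns1 (0.079), where Slit3 itself varied by 0.37 around its mean. Tmem119 read 11.36, 10.95 and 10.48 in control and 10.79, 10.26 and 10.71 in CNT cultures 1, 2 and 3, the same order of arrays as in Slit3. The profile of Slit2, which varied by 0.57, was nearest to those of Ecrg4 (0.094) and Etl4 (0.10). Ecrg4 read 9.36, 8.30 and 8.85 in control and 7.99, 7.98 and 9.16 in CNT cultures, with CNT 1 and CNT 2 below every control culture and CNT 3 above control 2 and control 3, as in Slit2. For Robo1, which varied by 0.30, Socs3 (0.098) and Gigyf2 (0.10) were nearest, and both were highest in control 2. Mical2 (0.067) and Hey2 (0.073) were nearest to Robo2, which varied by 0.22, and Vac14 (0.079) and Meox1 (0.085) to Slit1, which varied by 0.26. Within 0.1 log2 lay 1 gene each for Robo1 and Slit2, 4 for Slit3, 7 for Slit1 and 22 for Robo2. The comparison rests on 6 arrays and was not tested.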
